A study of Mus musculus with 6 samples.

Results

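Transcripts of 39 genes that encode tight junctions, adherens junctions and desmosomes were examined in the mouse mammary carcinoma line 4T1 and in its axitinib-resistant derivative. The genes were taken by name from the 53465 genes counted. They comprised 22 tight junction genes, 6 adherens junction genes, 10 desmosome genes and Epcam, an epithelial adhesion molecule that was kept apart from the 3 junction types. RNA sequencing was available for 3 libraries of parental (P) cells and 3 libraries of resistant (AxR) cells. AxR cells came from lesions in lung or lymph node, which of them is not stated for this line, that arose by spontaneous metastasis in mice carrying 4T1 tumours. These mice received 100 mg/kg/day of axitinib, a kinase inhibitor that acts on VEGF receptors, and the cells were then kept in culture with 0.5 μM of the drug for more than 2 months. P samples carry no treatment label and the study describes P cells as given vehicle, while the growth label of all 6 samples, P included, lists RPMI with 5% serum and 0.5 μM axitinib. The labels name a single AxR line, and drug exposure, growth in the animal and time in culture go together with the AxR label, so they cannot be told apart.

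Epithelial cells are held together by 3 kinds of junction. Tight junctions seal the space between cells near their upper border, with claudins as the strands that decide which solutes pass, and with occludin and other membrane proteins tied to scaffolds beneath. Adherens junctions join the actin skeletons of neighbours through cadherins and the catenins bound to their tails. Desmosomes join keratin filaments through desmosomal cadherins, plakophilins, plakoglobin and plakins, and carcinoma cells often keep some of these parts while they lose others.

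Depth lay between 15495260 and 17294525 estimated counts per library. Levels are given as CPM, estimated counts scaled to a common, normalized library size, and 13550 genes had enough counts to be tested with edgeR's quasi-likelihood test and Benjamini-Hochberg adjustment. At an adjusted p under 0.05, 32.8% of all tested genes rose in AxR cells and 30.8% fell, 63.5% in all, so that a call alone is common in these data. The epithelial keratins Krt8 and Krt18, which mark luminal cells, were high in both lines, at 313 and 676 CPM in P cells and 502 and 867 CPM in AxR cells. Of the 4 epithelial keratin markers listed, 3 were higher in AxR cells and Krt19 was lower (log2 fold change -1.31). Krt19 was also low, with a mean of 2.52 log2 CPM over the 6 libraries. Markers of other cell types were low for the most part. Of 8 leukocyte markers, Tyrobp, Fcer1g and Cd3e were among those at 0 in all libraries and Cd68 and Cd14 were higher in AxR cells, with a summed level of 6.14 to 8.09 CPM in P and 16.3 to 17.02 CPM in AxR libraries. Of 9 lung epithelial markers, Sftpd, Scgb1a1 and Nkx2-1 were at 0 and Foxj1 was higher in AxR cells, with sums of 0.577 to 1.22 CPM in P and 4.19 to 4.32 CPM in AxR libraries. Fibroblast markers summed to 22.5 to 24.1 CPM in P and 10.2 to 11.6 CPM in AxR libraries, with Col3a1, Lum and Thy1 at 0 and Pdgfra lower, of 8 listed. Endothelial markers had the largest of these sums, 68.1 to 73.6 CPM in P and 70.9 to 74.0 CPM in AxR libraries, with Emcn at 0 and Egfl7 lower, of 7 listed. Of the 2 endothelial markers tested, the other was not called, though all its AxR values lay above its P values. The part of all these markers in the results below was not tested.

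Most calls were lower for tight junction genes and higher for adherens junction and desmosome genes. Of the 22 tight junction genes, 14 were tested, with 3 higher and 9 lower in AxR than in P cells. Of the 6 adherens junction genes, 4 were tested, and 3 were higher and 1 lower. Of the 10 desmosome genes, 9 were tested, and 5 were higher and 2 lower. With Epcam, which was higher, 12 of the 28 genes tested were higher (42.9%) and 12 were lower (42.9%), against 32.8% and 30.8% of all genes. The other 11 genes had too few counts to be tested. The 28 genes were expressed at a higher level than most, with a median of 6.17 log2 CPM against 4.70 for all genes tested, and higher counts make small differences easier to call. A change of at least 1 on the log2 scale was less frequent and was found for Cldn9, Pkp1 and Ctnna1 among the higher genes and for Cldn7 and Evpl among the lower, where all genes gave 7.99% higher and 4.72% lower by this measure. In bulk RNA, fewer cells that express a gene and less RNA per cell cannot be told apart.

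The median log2 fold change was -0.19 for tight junction, 0.53 for adherens junction and 0.36 for desmosome genes, beside 0.0058 for all genes tested. Measured against the mean of the P libraries, the median tight junction gene was shifted by -0.19, -0.14 and -0.28 on the log2 scale in AxR replicates 1 to 3. The same shift was 0.56, 0.53 and 0.50 for adherens junction genes and 0.25, 0.47 and 0.35 for desmosome genes. In the P libraries, the shifts of the 3 types stayed between -0.064 and 0.039. By this median, all 3 AxR libraries were below the P libraries for tight junction genes and above them for the other types. Each type also held genes that moved the other way. Summed levels differed from this for desmosome genes, which were lower, at 668 to 695 CPM in P and 628 to 644 CPM in AxR libraries. The largest part of this sum was Dsp, with a mean of 302 CPM in P and 163 CPM in AxR cells, while 5 of the 9 tested desmosome genes were higher. CPM is not scaled by exon length, and Dsp has the longest exons of the desmosome genes (9659 bases). The lower sum therefore does not describe desmosome genes in general. Tight junction genes summed to 1589 to 1653 CPM in P and 1459 to 1515 CPM in AxR libraries. For adherens junction genes the sums were 1630 to 1663 CPM and 2264 to 2385 CPM. The difference between types was described and not tested. Gene by gene, the 3 AxR libraries lay above all P libraries for 12 genes and below them for 12, where 35.1% and 33.1% of all tested genes, 68.2% in all, had libraries without overlap.

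**Figure D1:**
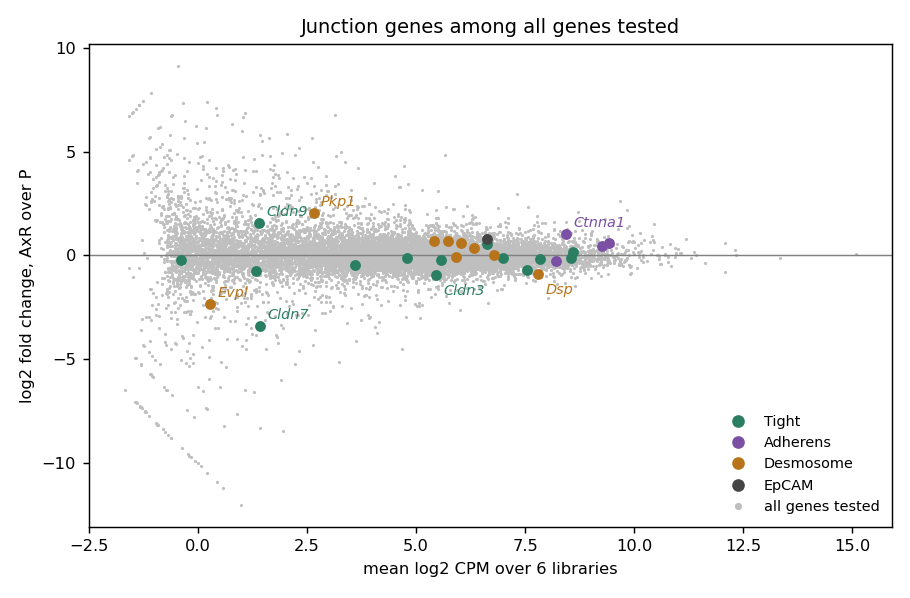
Log2 fold change of AxR over P cells (vertical axis) against the mean log2 CPM over 6 libraries (horizontal axis), with the 13550 genes tested in grey and the 28 tested junction genes coloured by type. Most junction genes lie at high levels near 0, while Cldn7 at -3.43 and Pkp1 at 2.05 stand farthest from it on either side.

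Claudins were the tight junction group with the lowest median, -0.73 over the 6 that were tested. Per kilobase of exon, Cldn4 was the most abundant claudin in both lines, with 134 CPM per kb in P and 118 CPM per kb in AxR cells, followed by Cldn12 and Cldn3. Cldn4 and Cldn3 encode claudins typical of glandular epithelium, and the genes are neighbours on chromosome 5 of GRCm38 (134945119 to 134946934 on the minus strand and 134986214 to 134987472 on the plus strand). Cldn3 measured 57.1, 64.4 and 61.9 CPM in the P libraries and 29.0, 30.7 and 35.6 CPM in the AxR libraries. The change was -0.94 on the log2 scale with a standard error (SE) of 0.079 (adjusted p = 6.84e-08 by edgeR), and no AxR library reached a P library. Cldn4 measured 245, 244 and 239 CPM in P and 211, 220 and 213 CPM in AxR libraries, a small fall of -0.17 on the log2 scale (SE 0.046, adjusted p = 0.00368 by edgeR). The neighbours thus fell to unequal extents.

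Cldn7 fell more than any other of the 28 genes tested. Its protein binds EpCAM and lies along the sides of epithelial cells as well as in tight junctions. Levels were 6.87, 9.06 and 8.74 CPM in the P libraries and 0.762, 0.638 and 0.853 CPM in the AxR libraries, a log2 fold change of -3.43 (SE 0.21, adjusted p = 1.66e-09 by edgeR), that is 10.8-fold lower. The gene was low in P cells as well, at 4.22 CPM per kb, where Cldn4 had 134 CPM per kb. Cldn12, an unusual claudin without the usual scaffold-binding end, measured 230, 242 and 245 CPM in P and 134, 142 and 163 CPM in AxR libraries (log2 fold change -0.70, SE 0.065, adjusted p = 2.88e-07 by edgeR). Cldn23 fell from 3.13 ± 0.651 CPM to 1.83 ± 0.088 CPM (mean ± SD of 3 libraries, here and below), which is -0.76 on the log2 scale. The only claudin that rose was Cldn9, with 1.70, 1.44 and 1.24 CPM in P and 4.06, 4.46 and 4.27 CPM in AxR libraries (log2 fold change 1.54, SE 0.20, adjusted p = 5.93e-06 by edgeR). Cldn6, which lies beside Cldn9 on chromosome 17, had too few counts to be tested, with 6, 6 and 2 counts in P and 14, 9 and 10 counts in AxR libraries. Both neighbours thus had more counts in every AxR library, at low levels.

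Together the 6 claudins had 241 to 250 CPM per kb in P and 175 to 189 CPM per kb in AxR libraries. Within this sum the share of Cldn4 was 53.5% to 55.9% in P and 62.2% to 66.4% in AxR libraries. The share of Cldn3 was 18.8% to 20.5% in P and 13.1% to 14.97% in AxR libraries, and that of Cldn12 was 22.5% to 23.6% and 18.1% to 20.5%. The summed claudin level was thus lower in AxR cells, and a larger part of it was Cldn4. The other 8 claudins were not tested. Cldn5, Cldn8, Cldn10 and Cldn11 had no count in any library, which allows up to 0.196 CPM where the floor of 3 counts is highest, for counting error alone. Cldn2 had at most 1 count per library, Cldn1 at most 5 and Cldn15 at most 7. Cldn5 is the main claudin of endothelium.

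**Figure D2:**
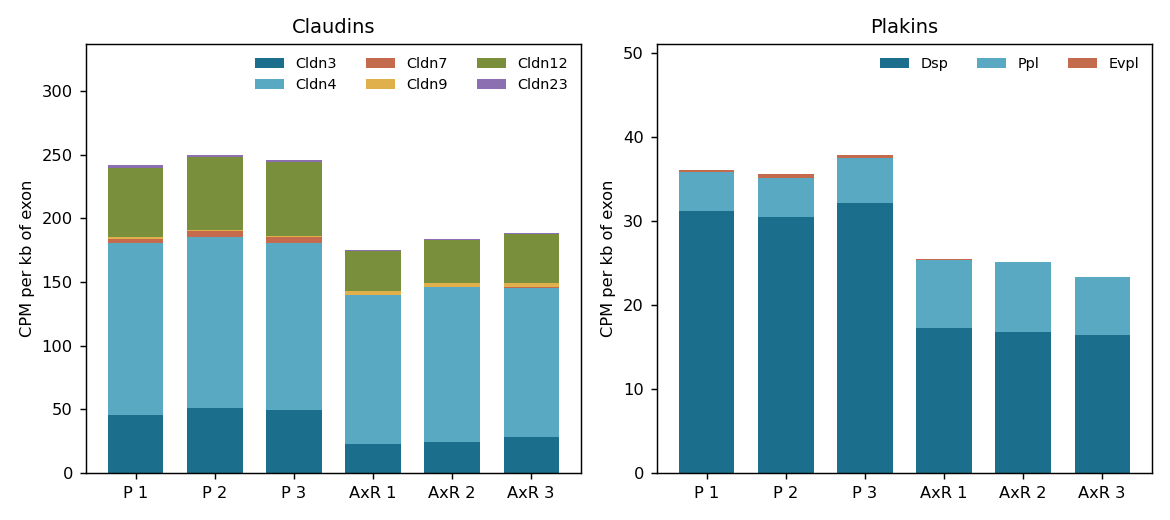
Level in CPM per kb of exon (vertical axis, from 0) in each P and AxR library, stacked by gene for the 6 tested claudins (left) and the 3 plakins (right). Claudin sums are 241 to 250 in P and 175 to 189 in AxR libraries, and in the plakin panel the Ppl part widens while the Dsp part shrinks.

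Promoter sequences are shown for Cldn4 and Cldn3, the neighbouring claudins that fell unequally, for Cldn7, the gene that fell most, and for Epcam, whose product binds claudin-7 and whose transcript rose. Each is the stretch of 250 bases before an annotated start, from RefSeq on GRCm38.p6, read 5′ to 3′ on the strand of the gene. Capitals mark the letters CACCTG or the reverse complement CAGGTG, an E-box form that repressors of the Snail and ZEB families are known to bind.
Cldn4 (chr5:134946935-134947184, minus strand): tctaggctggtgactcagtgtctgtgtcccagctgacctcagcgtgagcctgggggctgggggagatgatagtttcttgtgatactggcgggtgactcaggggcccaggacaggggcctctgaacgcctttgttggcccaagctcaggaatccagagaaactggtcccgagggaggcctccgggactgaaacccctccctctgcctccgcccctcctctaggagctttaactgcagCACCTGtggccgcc
Cldn3 (chr5:134985964-134986213, plus strand): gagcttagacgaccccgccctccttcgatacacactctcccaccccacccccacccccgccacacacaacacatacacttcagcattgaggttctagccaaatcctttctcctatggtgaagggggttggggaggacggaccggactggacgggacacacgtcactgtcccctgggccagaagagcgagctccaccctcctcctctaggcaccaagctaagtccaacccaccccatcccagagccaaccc
Cldn7 (chr11:69964529-69964778, plus strand): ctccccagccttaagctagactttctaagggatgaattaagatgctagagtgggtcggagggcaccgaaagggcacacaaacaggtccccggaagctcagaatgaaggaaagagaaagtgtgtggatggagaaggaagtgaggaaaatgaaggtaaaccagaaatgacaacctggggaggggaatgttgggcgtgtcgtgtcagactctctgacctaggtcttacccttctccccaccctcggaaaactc
Epcam (chr17:87635729-87635978, plus strand): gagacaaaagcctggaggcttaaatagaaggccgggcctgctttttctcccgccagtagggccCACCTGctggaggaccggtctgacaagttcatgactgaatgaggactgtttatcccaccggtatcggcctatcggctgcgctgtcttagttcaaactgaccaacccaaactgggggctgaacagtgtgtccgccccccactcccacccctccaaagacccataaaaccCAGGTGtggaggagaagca
Counted from the start, the letters begin at -14 in Cldn4 and at -187 and -19 in Epcam, and do not occur in the bases of Cldn3 and Cldn7 printed. With the 50 bases after the start included, matches numbered 1 for Cldn3, 2 for Cldn4, 2 for Epcam and 0 for this Cldn7 start. Cldn7 has another annotated start downstream, with matches at -97 and -57 in a window of which 221 bases are exonic. RefSeq windows were at hand for 24 of the 39 genes, in 34 windows, and 26.5% of these held the letters before the start, against 17.2% of 32851 windows of all genes. By gene, 8 of the 24 held them (33.3%), against 19.4% of 27025 genes with a window. They were found for 4 of the 9 genes that were lower, 1 of the 5 that were higher, 2 of the 3 that were not called and 1 of the 7 that were not tested. A match of letters is no measure of binding.

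Of the remaining 8 tight junction genes, 2 were higher (25%) and 4 lower (50%), beside 32.8% and 30.8% of all tested genes. Their median log2 fold change was -0.14. Their summed level was not lower, with 1044 to 1094 CPM in P and 1077 to 1099 CPM in AxR libraries. The 14 claudins summed to 545 to 564 CPM in P and 382 to 420 CPM in AxR libraries. Tjp1, the zonula occludens scaffold that ties claudins to actin, measured 387, 396 and 396 CPM in P and 354, 357 and 378 CPM in AxR libraries. The fall was small (log2 fold change -0.12, SE 0.046, adjusted p = 0.0369 by edgeR), and it was lost when P replicate 1, 2 or 3 or AxR replicate 1 or 2 was left out, with adjusted p values up to 0.127. F11r, which encodes the junctional adhesion molecule JAM-A, was close to it, with 131, 136 and 136 CPM in P and 118, 124 and 124 CPM in AxR libraries (log2 fold change -0.14, SE 0.050, adjusted p = 0.0243 by edgeR). This call was also lost without P replicate 2 or 3 or AxR replicate 1 or 2, with adjusted p values up to 0.0949. For both genes the AxR libraries lay just under the P libraries.

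The MARVEL family, formed by occludin, tricellulin and MarvelD3, gave 2 falls in 3 genes. Ocln (occludin) had 51.0, 52.1 and 51.1 CPM in P and 40.5, 48.1 and 41.1 CPM in AxR libraries, a log2 fold change of -0.25 (SE 0.071, adjusted p = 0.00661 by edgeR). Marveld3, whose protein also restrains growth signalling at junctions, had 12.8, 15.6 and 14.3 CPM in P and 9.34, 10.7 and 10.5 CPM in AxR libraries, a log2 fold change of -0.49 (adjusted p = 0.000869 by edgeR). Marveld2 (tricellulin), which seals the points where 3 cells meet, had 29.1 ± 1.05 and 26.5 ± 2.36 CPM with overlapping libraries and did not pass (log2 fold change -0.14, adjusted p = 0.146 by edgeR). Without AxR replicate 2 it passed, with a log2 fold change of -0.20 and an adjusted p of 0.0484.

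Cingulin and paracingulin, cytoplasmic linkers of tight junctions to actomyosin and microtubules, went the other way. Cgn (cingulin) had 76.4, 85.2 and 82.9 CPM in P and 123, 118 and 114 CPM in AxR libraries, a rise of 0.54 on the log2 scale (SE 0.057, adjusted p = 8.54e-07 by edgeR). Cgnl1 (paracingulin) had 356, 370 and 382 CPM in P and 405, 412 and 403 CPM in AxR libraries (log2 fold change 0.14, adjusted p = 0.0157 by edgeR), and without P replicate 1 its adjusted p was 0.0800. Tjp3, another zonula occludens scaffold, was nearly absent, with at most 19 counts per library and no call (log2 fold change -0.21, SE 0.43). Outside the claudins, the membrane proteins that passed the test were thus lower and both linkers higher.

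**Figure D3:**
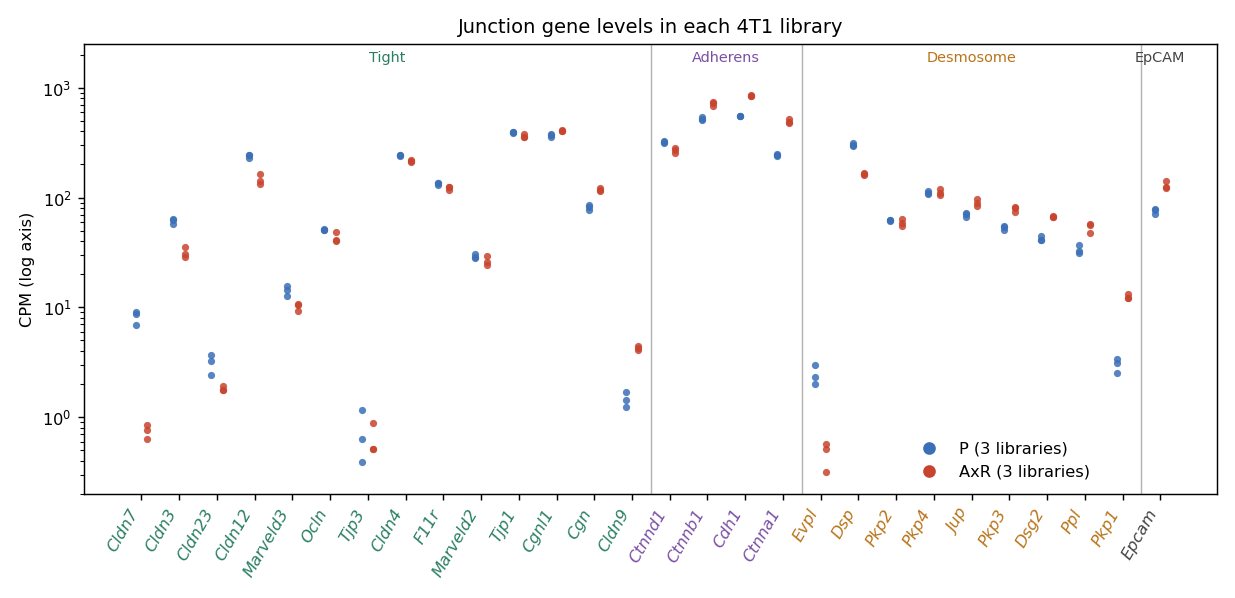
CPM of the 28 tested junction genes (vertical log axis) in the 3 P libraries (blue) and 3 AxR libraries (red), by junction type and then by fold change. Blue and red points separate for 24 genes and overlap for Tjp3, Marveld2, Pkp2 and Pkp4.

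In adherens junctions, the classical cadherin and the catenins that link it to actin rose. Cdh1 (E-cadherin, ENSMUSG00000000303.12, chromosome 8 from 106603351 to 106670246) measured 555, 555 and 558 CPM in P and 848, 837 and 851 CPM in AxR libraries. The log2 fold change was 0.60 (SE 0.043, adjusted p = 1.08e-08 by edgeR), and the replicates of each line were almost equal. Ctnna1 (α-catenin, the link to actin) measured 239, 248 and 244 CPM in P and 517, 490 and 481 CPM in AxR libraries, a log2 fold change of 1.03 (SE 0.047, adjusted p = 9.91e-11 by edgeR). Ctnnb1 (β-catenin, which binds the cadherin tail and also acts in WNT signalling) measured 520, 505 and 540 CPM in P and 738, 724 and 677 CPM in AxR libraries, a log2 fold change of 0.45 (SE 0.049, adjusted p = 1.13e-06 by edgeR). In all 3 genes each AxR library lay above each P library.

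Ctnnd1 (catenin delta-1, which steadies cadherins at the membrane) was the exception. It measured 315, 328 and 321 CPM in P and 281, 272 and 255 CPM in AxR libraries, a fall of -0.26 on the log2 scale (SE 0.049, adjusted p = 0.000328 by edgeR). Per kilobase, there were 0.355 to 0.369 Ctnnd1 transcripts per Cdh1 transcript in P and 0.187 to 0.207 in AxR libraries. For Ctnna1 the same ratio was 0.306 to 0.319 in P and 0.402 to 0.434 in AxR libraries, and for Ctnnb1 it was 0.801 to 0.852 and 0.702 to 0.767. Relative to E-cadherin, α-catenin transcripts were thus more abundant and those of the other catenins less abundant in AxR cells.

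Other classical cadherins were barely detected at this depth. Cdh2 (N-cadherin), which often replaces E-cadherin when epithelial cells turn mesenchymal, had 1 count in AxR replicate 1 and 0 in the other 5 libraries. Cdh3 (P-cadherin), typical of basal mammary cells, had 15, 13 and 8 counts in P and 4, 4 and 9 counts in AxR libraries and was not tested. Cdh3 entered the test when P replicate 3 or AxR replicate 3 was left out and was then lower, with adjusted p values of 0.0374 and 0.0198 by edgeR. It was not called without AxR replicate 1 or 2 or without the filter on low counts.

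Desmosome genes moved in opposite directions within the plakin family. Dsp (desmoplakin), the plakin that anchors keratin to every desmosome, measured 302, 294 and 311 CPM in P and 167, 163 and 159 CPM in AxR libraries. The log2 fold change was -0.89 (SE 0.047, adjusted p = 4.24e-10 by edgeR). Ppl (periplakin), a plakin of the cornified envelope and of desmosomes, rose instead, with 31.5, 32.4 and 36.9 CPM in P and 56.1, 56.9 and 47.1 CPM in AxR libraries (log2 fold change 0.67, SE 0.084, adjusted p = 6.59e-06 by edgeR). Evpl (envoplakin), the partner of periplakin, fell from 2.01, 3.00 and 2.35 CPM to 0.318, 0.510 and 0.569 CPM (log2 fold change -2.37, SE 0.31, adjusted p = 9.11e-06 by edgeR). Per kilobase, the 3 plakins summed to 35.7 to 37.9 CPM in P and 23.4 to 25.4 CPM in AxR libraries. Ppl made up 12.6% to 14.1% of this sum in P and 29.2% to 32.8% in AxR libraries, while the sum fell.

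Among the plakophilins, which bind desmosomal cadherins and desmoplakin, 2 rose and 2 were not called. Pkp1, usually found in stratified epithelium, rose from 2.55, 3.12 and 3.39 CPM to 13.1, 12.2 and 12.2 CPM, a log2 fold change of 2.05 (SE 0.13, adjusted p = 4.24e-09 by edgeR) and the largest rise among the 28 genes. Even so it was 4.36% to 4.84% of plakophilin transcripts per kilobase in AxR libraries. Pkp3 measured 50.9, 54.2 and 54.6 CPM in P and 73.7, 80.4 and 82.5 CPM in AxR libraries (log2 fold change 0.57, SE 0.061, adjusted p = 9.56e-07 by edgeR). Pkp2 had 61.7 ± 0.82 and 59.1 ± 4.57 CPM, and Pkp4, which also serves adherens junctions, had 111 ± 4.11 and 111 ± 6.71 CPM, with adjusted p values of 0.414 and 0.985 by edgeR. The libraries of the lines overlapped for both. Pkp3 and Pkp4 were each more abundant per kilobase than Pkp2 in both lines.

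Jup (plakoglobin), which serves both adherens junctions and desmosomes, measured 66.8, 71.2 and 73.0 CPM in P and 83.8, 97.3 and 89.4 CPM in AxR libraries, a log2 fold change of 0.36 (SE 0.063, adjusted p = 0.000145 by edgeR). Dsg2 (desmoglein-2), a desmosomal cadherin of simple epithelium, measured 41.0, 40.8 and 44.8 CPM in P and 65.9, 66.2 and 68.1 CPM in AxR libraries (log2 fold change 0.66, SE 0.060, adjusted p = 1.77e-07 by edgeR). Both rose in every AxR library. Dsc2 (desmocollin-2), its usual partner, had 5, 14 and 3 counts in P and 0 counts in all 3 AxR libraries. Against the floor of 3 counts, taken as 0.183 CPM over the libraries, its mean of 0.436 CPM in P cells was at least 2.38-fold higher than in AxR cells. Without P replicate 2, which held most of the counts, this bound was 1.36-fold. Without the filter on low counts it was called lower (adjusted p = 2.21e-05 by edgeR). Dsg2 and Dsc2 lie on the same chromosome, 18. Relative to desmoplakin, plakoglobin transcripts per kilobase were 0.332 to 0.363 in P and 0.755 to 0.899 in AxR libraries.

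Epcam encodes an adhesion molecule of epithelial cells that binds claudin-7 and protects it from breakdown. It measured 71.2, 77.1 and 77.9 CPM in P and 124, 143 and 122 CPM in AxR libraries, a log2 fold change of 0.78 (SE 0.066, adjusted p = 8.91e-08 by edgeR). There were 0.109 to 0.132 Cldn7 transcripts per Epcam transcript per kilobase in P and 0.0050 to 0.0079 in AxR libraries. The partners thus moved in opposite directions in all libraries. In the EpCAM and matriptase axis, the protease matriptase (St14) cleaves EpCAM. Of the 4 genes listed for it, 2 were higher (50%) and 1 was lower (25%), beside 32.8% and 30.8% of all tested genes. So few genes allow no statement about the axis. The matriptase inhibitor Spint2 had a log2 fold change of 0.28 and Spint1 of -0.44.

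**Figure D4:**
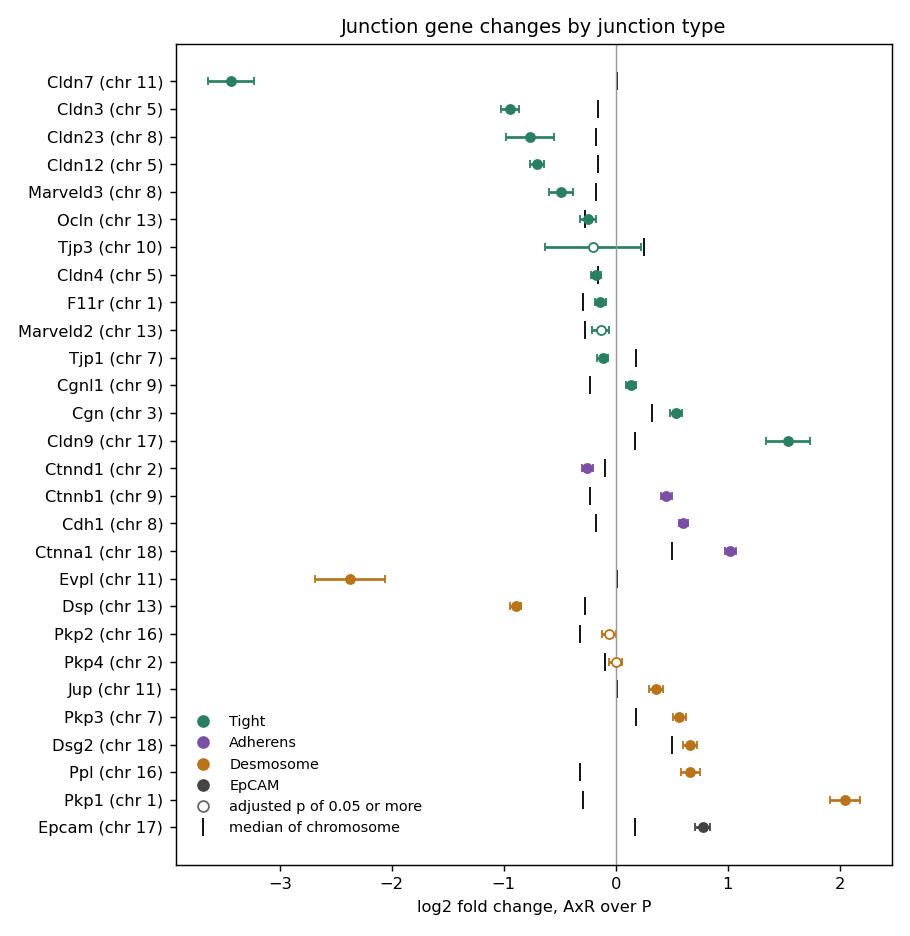
Log2 fold change of AxR over P cells (horizontal axis, bars are standard errors from edgeR) for the 28 tested junction genes by type, with open circles for genes not called and a black tick at the median of all tested genes on the chromosome of each. Tight junction genes lie mostly left of 0 and the 3 rising adherens junction genes right of 0, with Dsp and Evpl on the left among desmosome genes.

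Chromosomes differed in their median log2 fold change, and junction genes were set beside it. The 318 tested genes of chromosome 18, which carries Ctnna1 and Dsg2, had a median of 0.50, so that Ctnna1 was 0.53 and Dsg2 0.16 above it. Chromosome 5, with Cldn3, Cldn4 and Cldn12, had a median of -0.16, which is close to the log2 fold change of Cldn4. Chromosome 13 had a median of -0.27, near the value of Ocln and above that of Dsp. Of the 24 genes called, 16 had the sign of the median of their chromosome, 9 of the 12 lower and 7 of the 12 higher genes. The same share over all called genes was not taken. A median shares its sign with the larger part of its genes by definition, so this count is a description only. Against that sign, Cdh1, Pkp1, Ppl, Ctnnb1 and Cgnl1 rose and Cldn7, Tjp1 and Evpl fell. For Cldn7, Evpl and Jup the sign has little weight, since chromosome 11 had a median of 0.0077, beside 0.0058 for all genes tested. Of the 24 genes, 22 kept their sign after the chromosome median was subtracted, and F11r and Ocln did not. After the subtraction, the type medians were -0.15 for tight junction, 0.60 for adherens junction and 0.26 for desmosome genes. No DNA was measured.

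Genes that share exons with another gene could have uncertain counts. Ctnnb1 shares 759 exonic bases with Ulk4 on the opposite strand, which had 50.04 to 155 counts where Ctnnb1 had 8277 to 11907. Ctnnd1 shares 4482 bases with the predicted gene Gm28635, which had 0 counts in all libraries. Tjp3 overlaps Apba3, which had 408 to 607 counts against 6 to 19 for Tjp3. Dsp, Dsg2, Ctnna1 and Cldn3 overlap genes with at most 20 counts.

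Other genes of the same structures were taken from lists by role. Of 25 scaffolds and polarity proteins of the tight junction, 24 were tested, and 7 were higher (29.2%) and 10 lower (41.7%), beside 32.8% and 30.8% of all tested genes, with a median of -0.17. Crb3 and Prkci rose by 0.87 and 0.45 on the log2 scale, and Amotl2 and Mpp5 fell by 0.69 and 0.51. Of 9 other tight junction membrane proteins 2 were tested, and Cxadr, the coxsackie and adenovirus receptor, was lower (589 ± 67.3 to 273 ± 3.76 CPM, log2 fold change -1.11). Of 9 other claudins in the table, none reached the test. Of 25 other adherens junction genes, 15 were tested, and 7 were higher (46.7%) and 5 lower (33.3%), with a median of 0.050. Lmo7, an actin-linked protein that binds afadin, rose by 2.11 and Ssx2ip by 0.85 on the log2 scale, while Nectin3, a nectin that starts cell contacts, had a log2 fold change of -2.01 and the low-level cadherin gene Cdh17 of -2.40. Both tested genes among 9 other desmosome genes were higher. Perp, a tetraspan desmosome protein induced by p53 family factors, rose from 125 ± 9.92 to 383 ± 10.2 CPM (log2 fold change 1.62, adjusted p = 6.17e-12 by edgeR), and Cdsn, the gene of corneodesmosin, had a log2 fold change of 0.33 with overlapping libraries. The Cdsn call was lost without P replicate 2 or 3 or AxR replicate 2 or 3, with an adjusted p of up to 0.143 by edgeR.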

How the data were processed

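Poly(A)-selected, stranded RNA libraries were sequenced from 3 P and 3 AxR samples. No label says that replicates came from separate cultures, so p-values measure only the spread between these samples, which may be technical. Reads were aligned by the authors to GRCm38 with STAR 2.6.0a and GENCODE M16 and quantified per gene with RSEM 1.3.1, after checks with FastQC 0.11.5. The authors deposited estimated counts, before filtering and normalization, and 10.3% to 10.7% of values per library were not whole, because RSEM divides reads shared between genes. The strand setting of RSEM is not given in the sources used here.

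Estimated counts were rounded to whole numbers, and filterByExpr removed low genes. AxR was compared with P by the quasi-likelihood method of edgeR 4.0.16 (R 4.3.3) after upper quartile scaling, with Benjamini-Hochberg adjustment over 13550 genes and a threshold of 0.05. The standard error is the log2 fold change divided by the root of the F value. GENCODE M21 on GRCm38 gave symbols, positions and exon lengths for 53360 of 53465 identifiers. A floor of 3 counts (0.171 to 0.196 CPM by library) covers counting error only. The tests were also run on simulated counts, in which far fewer genes changed than were called here and all genes shared a dispersion. That run therefore does not measure the rate of false calls in these data. Replicates of a line differed by more than sampling noise (ratios of chi-square to degrees of freedom of 5.06 to 19.4). The genes and lists were chosen with earlier results of these data known. All 39 genes are named, and from each other list the 2 called genes with the highest and the 2 with the lowest log2 fold change, except a few that are not reported here. Alternatives were TMM, library size only, DESeq2 1.42.0, voom of limma 3.58.1, other low-count filters, other thresholds, the replicate number as a block and each library left out. For genes outside the 39, these alternatives were added after the data were seen.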

Additional observations from a re-analysis of the deposited data

How the results depend on the processing

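With a minimum change of 1 on the log2 scale added to the threshold, there were 1083 genes higher and 640 lower of all tested, 3 junction genes higher and 2 lower, 1 tight junction gene in each direction, 1 adherens junction gene higher and 0 lower, and 1 desmosome gene in each direction, which follows from the added criterion (for the count of 0, edgeR gave 0 at an unadjusted p under 0.05, and DESeq2 and limma-voom gave 0). With at least 10 counts in every library, 1 desmosome gene was lower, since Evpl no longer entered, and the desmosome median was 0.46. With each library left out, lower adherens junction genes numbered 1 to 2, Cdh3 being added without P replicate 3 or AxR replicate 3. Replicate numbers are shared by the lines, but deviations of same-numbered libraries from their group means were not correlated (r = -0.021, -0.0061 and -0.022), and no P library was paired with an AxR library by the labels. With the replicate number as a block, 12 junction genes were higher and 11 lower, the loss being Tjp1 (log2 fold change -0.12, adjusted p = 0.0776 by edgeR), and all genes gave 4304 and 4023. Without the low-count filter Tjp1 was lost too (adjusted p = 0.0689). Genes not called changed sign, Tjp3 to 0.29 without P replicate 1 (range -0.51 to 0.29 with each library left out), and Pkp4 to -0.010 with TMM, -0.021 with library size only, -0.012 with DESeq2, -0.00027 with limma-voom, -0.0019 without the filter and -0.020 without P replicate 3 (range -0.043, without AxR replicate 1, to 0.041). The median of all genes lay between -0.015 and 0.0058 over the scalings tried. Of the other genes named, only Cdsn lost its call under an alternative in which the gene was tested, with library size only (adjusted p = 0.0838 by edgeR), under the block (0.0867) and without 4 of the libraries. Neither the block nor another normalization changed another call. Depth limits the 11 untested junction genes.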

Other observations

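Hemidesmosomes, which fix epithelial cells to the basement membrane, were not among the cell-to-cell junctions. All 9 genes of the list were tested, and 5 were lower (55.6%) and 4 were not called, with a median log2 fold change of -0.41. Among all tested genes, 30.8% were lower, 32.8% higher and 63.5% called in either direction. The hemidesmosomal collagen gene Col17a1 fell from 1.17 ± 0.178 to 0.489 ± 0.225 CPM (mean ± SD of 3 libraries, here and below), with a log2 fold change of -1.23 and an adjusted p of 0.00889 by edgeR. Of 17 gap junction genes 6 were tested, and 1 was higher (16.7%) and 2 lower (33.3%). Gja1, which encodes a widely expressed connexin, rose from 299.9 ± 7.42 to 398 ± 43.3 CPM (log2 fold change 0.41), while Gjc1 fell by 0.55 on the log2 scale.

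Of 16 regulators known to control junction genes, 13 were tested, and 3 were higher (23.1%) and 7 lower (53.8%), where 32.8% and 30.8% of all tested genes were. Zeb1, a repressor of Cdh1 and other epithelial genes, had 1 count in each P library and 58, 50 and 60 counts in the AxR libraries (adjusted p = 7.31e-09 by edgeR). Its relative Zeb2 fell from 122 ± 4.08 to 55.4 ± 0.852 CPM (log2 fold change -1.14). Esrp1, a splicing factor of epithelial cells, rose from 154 ± 3.00 to 271 ± 27.1 CPM (log2 fold change 0.82), and Ovol1 fell by 0.84 on the log2 scale. Zeb1 lies on chromosome 18, where the median was 0.50. Of the 4 epithelial keratin markers, Krt7, Krt8 and Krt18 rose by 0.96, 0.68 and 0.36 on the log2 scale and Krt19 fell by 1.31.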
